A study of Mus musculus with 8 samples.

Results

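The iDam and BryGFP embryonic stem cell lines of the mouse, both with a wild-type (wt) background, were compared as hemogenic endothelium, with 4 of the 8 sequenced libraries, 2 from each line. The rows were all 622 genes that the authors had listed as differing between Runx1 knockout (ko) and wt cells, and 360 of them were tested, those whose RPKM averaged 1 or more across all 8 libraries. RPKM is a read count scaled by gene length and library size. Whether a gene differs between the wt lines played no direct part in its listing, but a gene had to differ from the ko libraries in both lines to be listed. Other genes were not analysed here.

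The series measured RNA from cells in culture that the labels call haemogenic endothelium. Per the labels' protocols, FLK1+ cells isolated from d3.25 embryoid bodies went through liquid blast culture for 2 days, and cells with the phenotype cKIT+ TIE2+ CD41- were then collected. The iDam and BryGFP lines carried no Runx1 knockout, the lines iDamko and Ainv18ko were Runx1 -/-, and all 4 lines are labelled strain 129 and had the same culture and sort. Each line had 2 libraries that the design text calls biological duplicates, so the p-values below measure the spread between such duplicates of 1 line. The labels do not say how the lines were made or whether each is 1 clone, so what separates iDam from BryGFP by descent, passage or construct cannot be told apart. The genes of the sort markers, Kit, Tek and Itga2b, are not among the rows and were not analysed here. In bulk RNA, fewer cells of a type and less RNA per cell cannot be told apart, which holds for every gene below.

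Hemogenic endothelium is the part of the embryonic endothelium from which blood cells emerge, and it passes through an endothelial-to-hematopoietic transition that depends on RUNX1. Cells derived from FLK1+ mesoderm can also become smooth muscle, cardiac and other mesenchymal cells, so genes of these fates are commonly followed beside endothelial and blood genes. Imprinted genes are read from 1 parental copy only. The imprinted Dlk1-Dio3 locus makes the long RNAs Meg3, Rian and Mirg and many snoRNAs and miRNAs from the maternal copy, and its RNA output is known to vary between stem cell lines.

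Of the 29 miRNA genes in the table, 27 lie in the Dlk1-Dio3 locus. Between the wt lines 16 were tested and 11 passed, all lower in iDam (10 in the locus, and Mir675 in H19). Over all genes tested, 19.2% were lower. All 29 were matched to RefSeq (GRCm38.p6). The sequences below are mature products of 8 of these 11 genes, shown because they are the RNAs that the miRNA genes lower in iDam encode. The seed, bases 2 to 8, is in capitals. The libraries were of total RNA, so reads at a miRNA gene may come from its host transcript, and the values below do not measure the mature miRNA.
mmu-miR-1906: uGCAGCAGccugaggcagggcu
mmu-miR-453: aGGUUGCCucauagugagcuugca
mmu-miR-3070-3p: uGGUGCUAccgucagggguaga
mmu-miR-3070-2-3p: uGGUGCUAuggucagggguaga
mmu-miR-127-3p: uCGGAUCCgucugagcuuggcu
mmu-miR-382-5p: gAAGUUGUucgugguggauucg
mmu-miR-758-3p: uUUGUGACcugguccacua
mmu-miR-675-5p: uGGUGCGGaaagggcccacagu
mmu-miR-675-3p: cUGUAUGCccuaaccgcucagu
The products of Mir3070a and Mir3070b share the seed GGUGCUA, and reads of these near-identical genes can be split uncertainly by counting.

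Between the wt lines, 91 of 360 genes (25.3%) passed the test, 22 higher in iDam (6.11%) and 69 lower (19.2%), by limma on log2(RPKM + 1) with Benjamini-Hochberg adjustment and a threshold of 0.05. Of the 69 lower genes, 27 lay in the Dlk1-Dio3 locus and 12 in a chromosome 14 stretch, both described below. The stretch was bounded by its lower genes. Over the 302 tested genes outside both, 22 were higher and 30 lower in iDam. The split of the 91 depended on scaling. Quantile normalization gave 31 higher and 56 lower (35.6% higher, against 24.2% as deposited), and shifting the libraries to a common median within each genotype gave 34 higher and 32 lower (51.5%). These scalings moved the median difference of all tested genes by 0.25 and 0.31. Without a filter on low values, 47 genes were higher and 86 lower (35.3% higher). As deposited, the median log2 difference, iDam minus BryGFP, was -0.10, with quartiles of -0.56 and 0.15, and 56 genes differed by at least 1. The count was 52 without iDam replicate 1, 55 without iDam replicate 2, 64 without BryGFP replicate 1 and 48 without BryGFP replicate 2.

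The duplicates of each wt line lay closer to each other than to the other wt line. The median absolute log2 difference over the tested genes was 0.223 between the iDam libraries and 0.223 between the BryGFP libraries, against 0.346 to 0.433 for an iDam library and a BryGFP library. Depths implied by the steps of low values were 53000000 and 42400000 reads for iDam, and 44500000 and 51900000 reads for BryGFP. With 2 libraries against 2, an exact permutation test cannot give a p below 0.333. The libraries of both lines did not overlap in 75 genes with iDam above (20.8%) and 144 with iDam below (40%). Of the 387 genes lower in ko, 204 were tested, and 19 were higher and 53 lower in iDam. The Dlk1-Dio3 locus held 27 of these 53. Of the 235 genes higher in ko, 156 were tested, and 3 were higher and 16 lower in iDam. The chromosome 14 stretch held 12 of these 16. Over all genes tested, 6.11% were higher and 19.2% lower. The filter averages all 8 libraries, so genes higher in ko could pass it through their ko values.

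**Figure D1:**
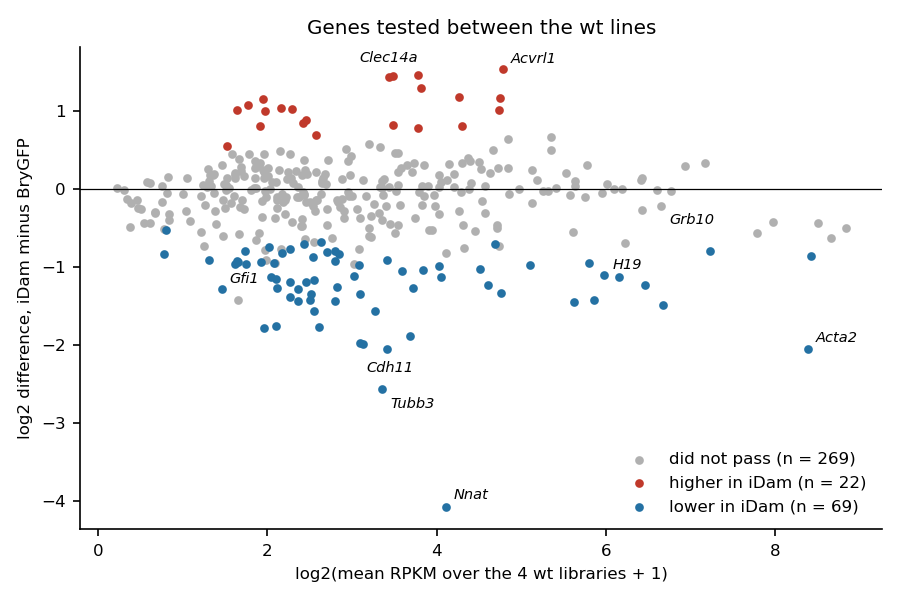
Log2 difference between iDam and BryGFP (vertical axis) against log2 of the mean RPKM over the 4 wt libraries plus 1 (horizontal axis), 1 point per tested gene. The 22 genes higher in iDam reach 1.54, and the 69 lower ones reach -4.08 at Nnat, with Acta2 lower at a high level.

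Of 50 listed genes of smooth muscle and mesenchyme, 12 were in the table and 9 tested, and 5 were lower in iDam, 0 higher (limma, also 0 higher at an unadjusted p under 0.05) and 4 did not pass, against 19.2% lower over all genes tested. The median log2 difference of the 9 was -1.57, against -0.10 for all genes tested. Acta2, which encodes smooth muscle actin (chromosome 19, 34241090 to 34255590, GRCm38), had 134 and 122 RPKM in iDam, against 446 and 633 RPKM in BryGFP. The groups did not overlap, and both BryGFP libraries were above both iDam libraries. The difference was -2.05 ± 0.29 on the log2 scale (SE; limma, Benjamini-Hochberg adjusted p = 0.00174).

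The cadherin gene Cdh11, typical of mesenchymal cells, had 3.43 and 2.78 RPKM in iDam, against 12.8 and 19.8 RPKM in BryGFP (difference -2.05 ± 0.25, SE; limma, Benjamini-Hochberg adjusted p = 0.00136). Pdgfrb, the receptor through which PDGF-B recruits pericytes and smooth muscle, had 3.36 and 1.66 RPKM in iDam, against 10.4 and 14.7 RPKM in BryGFP (-1.97 ± 0.30, SE; limma, Benjamini-Hochberg adjusted p = 0.00179). Neither gene had overlapping groups, and the mean of BryGFP was 5.25-fold that of iDam for Cdh11 and 5.00-fold for Pdgfrb (7.55-fold without iDam replicate 1). The calls of Acta2, Cdh11 and Pdgfrb held with each of the 4 wt libraries left out in turn.

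Hand1, a transcription factor of extraembryonic mesoderm and heart, had 6.37 and 3.00 RPKM in iDam, against 16.7 and 21.6 RPKM in BryGFP. Foxf1a, a forkhead factor of lateral plate mesoderm, had 5.51 and 2.55 RPKM in iDam, against 11.4 and 15.3 RPKM in BryGFP. Both were lower in iDam (-1.88 and -1.57; limma, Benjamini-Hochberg adjusted p = 0.00829 and 0.0126), with iDam below BryGFP in every library and iDam replicate 2 the lowest in both. Hand1 lost its call without iDam replicate 2 or BryGFP replicate 2, and Foxf1a without these or BryGFP replicate 1, which left 3 of the 9 list members called without iDam replicate 2 or BryGFP replicate 2.

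Other mesenchymal genes did not pass. Csrp2, an actin-associated LIM protein gene, had 100 and 114 RPKM in iDam, against 96.7 and 122 RPKM in BryGFP, Hand2 had 19.2 and 7.72 against 16.6 and 10.3, and the myosin light chain gene Myl9 had 17.1 and 23.8 against 24.7 and 25.8. In Csrp2 and Hand2 the lines overlapped, and none of the 3 passed. Mylk, the myosin light chain kinase gene, was below the filter and lay the other way, with 1.52 and 2.04 RPKM in iDam, against 0.804 and 0.843 RPKM in BryGFP. It passed as higher in iDam without a filter (0.60 ± 0.14, SE; limma, Benjamini-Hochberg adjusted p = 0.0207). With the filter on the 4 wt libraries it also passed (limma, Benjamini-Hochberg adjusted p = 0.0164). Under both settings the list had 1 member higher and 5 lower in iDam. Without a filter the median of the list's 12 members was -0.20. The summed RPKM of the 9 tested genes was 295 and 281 in iDam, against 641 and 866 in BryGFP, with Acta2 the largest part. Of the 12 members, none was at 0 in any wt library.

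**Figure D2:**
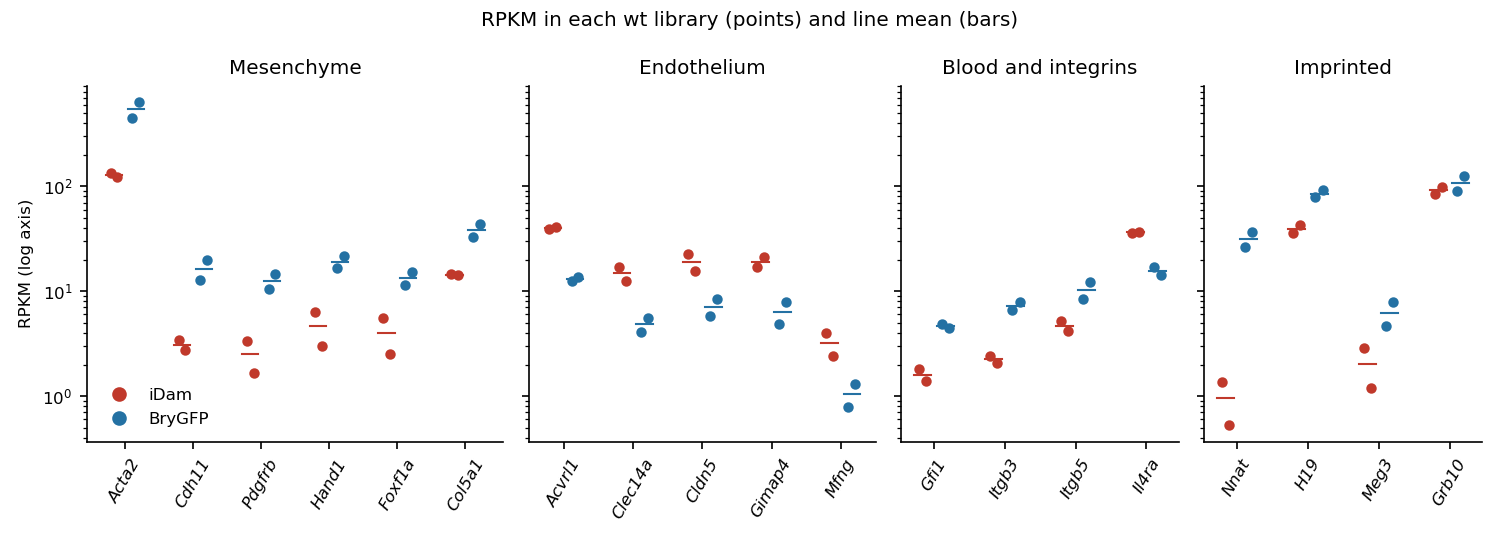
RPKM on a log axis in each wt library (points) with the mean of each line (bars), for chosen genes under 4 headings, iDam left of BryGFP. Col5a1 stands under mesenchyme, and Gimap4 and Mfng under endothelium, though they belong to other lists. Mesenchymal and endothelial list members that did not pass, such as Csrp2, Hand2, Myl9 and Aplnr, are not shown, nor is Mylk. Acta2, Cdh11, Pdgfrb and Nnat lie far lower in iDam, Acvrl1, Clec14a and Cldn5 higher, and the libraries of Grb10 overlap.

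Of 72 listed endothelial genes, 6 were in the table and 4 tested. By limma 3 of the 4 were higher in iDam, against 6.11% over all genes tested, and 0 lower (also 0 lower at an unadjusted p under 0.05). The count was 2 without iDam replicate 1 or BryGFP replicate 1. The median log2 difference of the 4 was 1.37. Acvrl1, which encodes the BMP9 receptor ALK1 of endothelium (chromosome 15, 101128522 to 101145336, GRCm38), had 39.0 and 41.0 RPKM in iDam, against 12.5 and 13.7 RPKM in BryGFP. Its groups did not overlap, and its difference of 1.54 ± 0.22 was the largest upward one among the genes tested (SE; limma, Benjamini-Hochberg adjusted p = 0.00174).

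Clec14a, a C-type lectin gene of the endothelial surface, had 17.2 and 12.5 RPKM in iDam, against 4.08 and 5.57 RPKM in BryGFP (1.44 ± 0.23, SE; limma, Benjamini-Hochberg adjusted p = 0.00244). Cldn5, the tight junction claudin of endothelium, had 22.5 and 15.7 RPKM in iDam, against 5.82 and 8.45 RPKM in BryGFP (1.3 ± 0.29, SE; limma, Benjamini-Hochberg adjusted p = 0.0104). All iDam libraries were above all BryGFP libraries in both genes, and Cldn5 lost its call without iDam replicate 1 or BryGFP replicate 1. The apelin receptor gene Aplnr did not pass, with 45.2 and 52.9 RPKM in iDam, against 30.9 and 30.1 RPKM in BryGFP.

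Below the filter, the vessel-destabilizing ligand gene Angpt2 had 2.00 and 2.03 RPKM in iDam, against 0.843 and 1.34 RPKM in BryGFP, with both iDam libraries above both BryGFP libraries. Bmx, an endothelial tyrosine kinase gene, was at most 0.184 RPKM in iDam and 0.0484 RPKM in BryGFP. The summed RPKM of the 4 tested endothelial genes was 124 and 122 in iDam, against 53.3 and 57.7 in BryGFP. This sum was higher in iDam where that of the mesenchymal list was lower, and the part of either list in the other's difference was not tested.

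**Figure D3:**
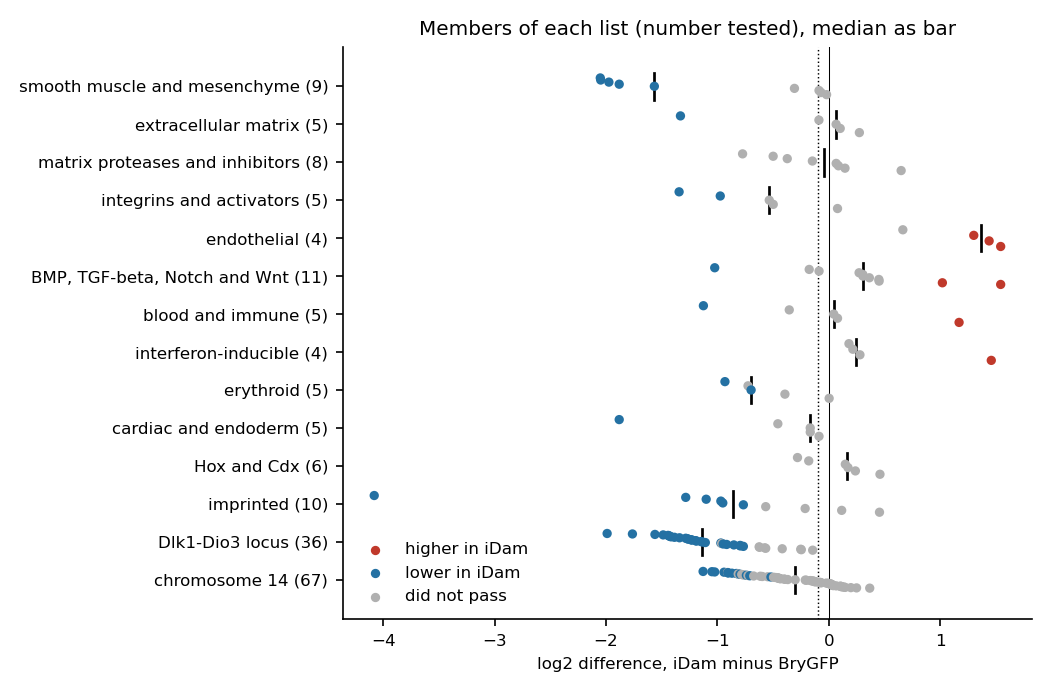
Log2 difference, iDam minus BryGFP, of each tested member of 14 gene groups, with the median of each group as a bar and that of all genes as a dotted line. The mesenchymal median is at -1.57, the endothelial median at 1.37, and the Dlk1-Dio3 median at -1.14.

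Of 5 tested extracellular matrix genes, 1 passed, against 25.3% of all genes tested. This was Col5a1, a fibrillar collagen chain gene. It had 14.5 and 14.2 RPKM in iDam, against 32.6 and 43.3 RPKM in BryGFP (-1.33 ± 0.22, SE; limma, Benjamini-Hochberg adjusted p = 0.00261). The fibrillin gene Fbn2 had 36.0 and 25.4 RPKM in iDam, against 25.2 and 24.5 RPKM in BryGFP, and did not pass. Of 8 tested protease and inhibitor genes, 0 passed by limma, and at an unadjusted p under 0.05, 1 was higher and 2 were lower. The gelatinase gene Mmp2 had 36.8 and 31.6 RPKM in iDam, against 22.3 and 20.5 RPKM in BryGFP (0.65; limma, Benjamini-Hochberg adjusted p = 0.086). The medians were 0.07 for the matrix list and -0.04 for the protease list. Adamts4, a versican- and aggrecan-cleaving protease gene below the filter, had 1.08 and 1.34 RPKM in iDam, against 0.482 and 0.799 RPKM in BryGFP.

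Of 5 tested integrin genes and activators, 2 were lower in iDam, where the share over all genes was 19.2%, and 0 higher (limma, also 0 higher at an unadjusted p under 0.05). The median was -0.53. Itgb3, the beta subunit of the vitronectin and fibrinogen receptors (chromosome 11, 104608000 to 104670476, GRCm38), had 2.40 and 2.08 RPKM in iDam, against 6.59 and 7.90 RPKM in BryGFP. The groups were well apart, with a difference of -1.34 ± 0.19 (SE; limma, Benjamini-Hochberg adjusted p = 0.00174). Itgb5, the beta subunit of another vitronectin receptor, had 5.17 and 4.2 RPKM in iDam, against 8.35 and 12.2 RPKM in BryGFP. It was lower in iDam by limma (-0.97; Benjamini-Hochberg adjusted p = 0.0159), but not without iDam replicate 2 or BryGFP replicate 2, nor with libraries shifted to a common median. The kindlin-3 gene Fermt3, an integrin activator of blood cells, had 26.1 and 16.1 RPKM in iDam, against 31.7 and 27.2 RPKM in BryGFP, and Itga3, a laminin receptor subunit, had 14.8 and 19 against 21.5 and 28.4. The groups of both lay apart with iDam below, but neither passed.

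Blood genes went in both directions. Of 88 listed blood and immune genes, 9 were in the table and 5 tested, with a median of 0.04. Gfi1, a repressor that silences endothelial genes as blood emerges (chromosome 5, 107716657 to 107726036, GRCm38), had 1.80 and 1.40 RPKM in iDam, against 4.84 and 4.48 RPKM in BryGFP (-1.13 ± 0.17, SE; limma, Benjamini-Hochberg adjusted p = 0.00174). Il4ra, the interleukin-4 receptor alpha gene, had 35.8 and 36.9 RPKM in iDam, against 16.9 and 14.4 RPKM in BryGFP (1.17 ± 0.21, SE; limma, Benjamini-Hochberg adjusted p = 0.00451). Gfi1 was thus lower and Il4ra higher in iDam, both with groups that did not overlap. Ikzf2, the Helios gene, had 3.02 and 1.77 RPKM in iDam, against 2.81 and 3.77 RPKM in BryGFP, and its groups overlapped. Lcp2, the SLP-76 adaptor gene, was below the filter, with 1.75 and 1.27 RPKM in iDam, against 0.687 and 0.690 RPKM in BryGFP.

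Of 5 erythroid genes, 2 were lower in iDam, against 19.2% of all genes, and 0 higher by limma (0 higher also at an unadjusted p under 0.05). The median was -0.70. The transferrin receptor gene Tfrc had 20.4 and 17.1 RPKM in iDam, against 28.3 and 33.7 RPKM in BryGFP (-0.70; limma, Benjamini-Hochberg adjusted p = 0.0479), and Spnb1, the erythroid beta-spectrin gene, had 1.12 and 1.19 against 2.55 and 3.76 (-0.93; limma, Benjamini-Hochberg adjusted p = 0.0262). Both calls were lost whichever wt library was left out, and with libraries shifted to a common median. That of Tfrc was also lost without a filter and with differences centred on their median, and that of Spnb1 with quantile normalization. The carbonic anhydrase gene Car2 had 29.2 and 31.7 RPKM in iDam, against 29.1 and 31.7 RPKM in BryGFP. The summed RPKM of the 5 genes was 52.4 and 51.0 in iDam, against 62.7 and 72.4 in BryGFP.

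Among cardiac and endoderm genes, Hand1, already given, was the only 1 of 5 to pass (25.3% over all genes), and the median was -0.17. Gata4, a cardiac and endoderm factor on chromosome 14, had 8.67 and 8.87 RPKM in iDam, against 14.5 and 10.6 RPKM in BryGFP, without passing. The cardiac troponin gene Tnnt2 had 3.8 and 4.91 RPKM in iDam, against 5.48 and 4.50 RPKM in BryGFP, with overlap. The neuronal tubulin gene Tubb3 had 1.82 and 2.09 RPKM in iDam, against 18.1 and 15.0 RPKM in BryGFP. This gap, -2.57 ± 0.48, was second to that of Nnat among genes lower in iDam (SE; limma, Benjamini-Hochberg adjusted p = 0.00512), but it lost its call without BryGFP replicate 1. The neurofilament gene Nefl, on chromosome 14 like Gata4, had 1.44 and 1.95 RPKM in iDam, against 5.44 and 2.94 RPKM in BryGFP, and did not pass. The ko libraries, which scatter widely for Tubb3 (31.7 to 85.3 RPKM in iDamko and 29.1 to 70.7 RPKM in Ainv18ko), enter its error.

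Of 11 tested genes of BMP, TGF-beta, Notch and Wnt signalling, Acvrl1 and Mfng were higher and Bmp4 lower in iDam, 3 in all against 25.3% over all genes, with a list median of 0.31. Mfng, a fringe glycosyltransferase gene that alters Notch receptors, had 3.96 and 2.41 RPKM in iDam, against 0.793 and 1.29 RPKM in BryGFP (1.02; limma, Benjamini-Hochberg adjusted p = 0.0104). Bmp4, the mesoderm- and blood-inducing ligand gene, had 12.5 and 15.2 RPKM in iDam, against 22.2 and 37.7 RPKM in BryGFP (-1.02; limma, Benjamini-Hochberg adjusted p = 0.0375). Mfng lost its call without iDam replicate 1 or BryGFP replicate 1 and with a pseudocount of 0.1. Bmp4 lost its call without iDam replicate 1, iDam replicate 2 or BryGFP replicate 2, with libraries shifted to a common median, with differences centred on their median, with a pseudocount of 0.1 and without a filter. Bmp5, below the filter, had 0.500 and 0.255 RPKM in iDam, against 1.16 and 1.5 RPKM in BryGFP. Nrarp, a Notch feedback gene, had 8.87 and 6.60 RPKM in iDam, against 6.24 and 5.25 RPKM in BryGFP, and did not pass.

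Of 17 Hox and Cdx genes in the table, 6 were tested and 0 passed by limma, with 0 also at an unadjusted p under 0.05. Hoxd8 had 14 and 11 RPKM in iDam, against 8.78 and 8.76 RPKM in BryGFP, and the other tested members ranged between -0.28 and 0.24 on the log2 scale. Of the 11 below the filter, 2 had both iDam libraries above both BryGFP libraries, 5 had them below and 4 overlapped. The caudal factor gene Cdx2 had 0.808 and 0.293 RPKM in iDam, against 2.03 and 3.14 RPKM in BryGFP, and Hoxb6 had 1.20 and 0.686 RPKM in iDam, against 2.23 and 2.17 RPKM in BryGFP. With the filter on the 4 wt libraries both passed as lower in iDam (-1.21 and -0.74; limma, Benjamini-Hochberg adjusted p = 0.00278 and 0.0127). Hoxb5 and Hoxd1 also came above that filter and did not pass. Hoxd10 and Hoxa9 lay the other way, with 1.26 and 0.883 RPKM in iDam, against 0.424 and 0.567 RPKM in BryGFP, for Hoxd10, and 0.467 and 0.348 RPKM in iDam, against 0.255 and 0.138 RPKM in BryGFP, for Hoxa9. Without a filter Hoxd10 and Hoxa9 passed as higher in iDam (limma, Benjamini-Hochberg adjusted p = 0.0228 and 0.0437), and Cdx2, Hoxb6 and Hoxb8 as lower. The cyclin gene Ccnd1 had 21 and 45.2 RPKM in iDam, against 33.4 and 36.6 RPKM in BryGFP, the cell cycle inhibitor gene Cdkn2a 7.47 and 10.6 against 5.74 and 13.1, and the pluripotency-associated gene Dppa4 5.84 and 8.56 against 7.24 and 11.7. All 3 overlapped between the lines.

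Among interferon-inducible genes and related GTPase genes, Gimap4, a GTPase gene of immune cells, had 16.9 and 21.1 RPKM in iDam, against 4.87 and 7.92 RPKM in BryGFP (1.46 ± 0.24, SE; limma, Benjamini-Hochberg adjusted p = 0.00261). The lines overlapped in its cluster neighbours Gimap9, with 2.62 and 3.79 RPKM in iDam, against 2.81 and 2.38 RPKM in BryGFP, and Gimap5. Of the 10 genes of this list in the table, 4 were tested, and 1, Gimap4, was higher in iDam (6.11% over all genes) and 0 lower. The Schlafen genes Slfn5 and Slfn9 lay below the filter. Slfn5 had 3.05 and 3.06 RPKM in iDam, against 0.367 and 0.683 RPKM in BryGFP. Slfn9 had 2.09 and 2.14 RPKM in iDam, against 0.257 and 0.330 RPKM in BryGFP. In both the iDam libraries were the high ones, and Slfn2, Slfn10-ps and Igtp, also below the filter, likewise had both iDam libraries above both BryGFP libraries. Without a filter, Slfn5 and Slfn9 passed as higher in iDam (1.42 and 1.27, limma, Benjamini-Hochberg adjusted p = 0.000738 and 0.000234). Slfn2, Slfn10-ps and Igtp also passed as higher there (limma, Benjamini-Hochberg adjusted p = 0.0314, 0.0149 and 0.0164).

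Of the imprinted genes that passed, all were lower in iDam, 3 of them in the Dlk1-Dio3 locus. Of 73 listed, 15 rows were in the table and 10 tested, and 6 were lower in iDam (19.2% over all genes) and 0 higher by limma, with 0 higher also at an unadjusted p under 0.05. The median was -0.86. The count was 2 lower and 1 higher with libraries shifted to a common median, and 1 to 4 lower without 1 wt library, with 1 without iDam replicate 2 or BryGFP replicate 2 and 3 without iDam replicate 1. Nnat, which encodes neuronatin, a small membrane protein read from the paternal copy (chromosome 2, 157560078 to 157562522, GRCm38, within an intron of Blcap in the mouse), had 1.37 and 0.525 RPKM in iDam, against 26.6 and 36.5 RPKM in BryGFP. Its level in BryGFP was 33.2-fold that in iDam (60.1-fold without iDam replicate 1), the widest gap of the table among genes tested, with a difference of -4.08 ± 0.25 (SE; limma, Benjamini-Hochberg adjusted p = 1.37e-05), and the call held with each wt library left out in turn. In implied reads this was about 133 and 40.7 in iDam, against 2169 and 3461 in BryGFP.

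H19, a maternally read growth-restraining RNA and the host of Mir675 (chromosome 7, 142575529 to 142578143, GRCm38), had 36.0 and 42.5 RPKM in iDam, against 78.7 and 91.7 RPKM in BryGFP (-1.10 ± 0.28, SE; limma, Benjamini-Hochberg adjusted p = 0.0183). Mir675 had 34.5 and 39.7 RPKM in iDam, against 74.4 and 70.7 RPKM in BryGFP (-0.95 ± 0.27, SE; limma, Benjamini-Hochberg adjusted p = 0.0275). The groups lay apart in both, but the genes share their sequence and so their reads, and both calls were lost whichever wt library was left out and with libraries shifted to a common median, and that of Mir675 also with a pseudocount of 0.1. Other imprinted genes at like or higher levels did not pass. Grb10, an adaptor gene of insulin and growth factor receptors, had 85.0 and 99.1 RPKM in iDam, against 89.9 and 126 RPKM in BryGFP, with overlap. The Prader-Willi region gene Ndn had 36.9 and 37.1 RPKM in iDam, against 34.6 and 33.5 RPKM in BryGFP, a difference of 0.12. Klf14, below the filter, had 1.05 and 0.661 RPKM in iDam, against 1.97 and 2.65 RPKM in BryGFP.

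The Dlk1-Dio3 locus held 49 rows of the table, within chromosome 12, 109452485 to 110281097 (GRCm38). Of 36 tested, 27 were lower in iDam (19.2% over all genes) and 0 higher by limma, with 0 higher also at an unadjusted p under 0.05. In 33 both iDam libraries were below both BryGFP libraries, which held in 40% of all genes tested. The median ratio of mean RPKM, iDam over BryGFP, was 0.415, and the median log2 difference was -1.14, against -0.10 for all genes tested. It was -0.01 for the 302 tested genes outside this locus and the chromosome 14 stretch described below, which was bounded by its lower genes. The count was 16 with a pseudocount of 0.1, 11 with libraries shifted to a common median, and 18, 16, 20 and 15 without iDam replicate 1, iDam replicate 2, BryGFP replicate 1 and BryGFP replicate 2. The transcripts overlap each other and counting by strand is not given in the sources used here, so the rows are not independent measurements. The protein-coding genes of the locus were not analysed here.

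Meg3 had 2.85 and 1.19 RPKM in iDam, against 4.64 and 7.86 RPKM in BryGFP (-1.28; limma, Benjamini-Hochberg adjusted p = 0.0117). The Rian long RNA, host of the locus's snoRNAs, had 21.4 and 22.5 RPKM in iDam, against 36.0 and 53.3 RPKM in BryGFP (-0.97; limma, Benjamini-Hochberg adjusted p = 0.0159). Mirg, host of many of its miRNAs, had 2.73 and 2.39 RPKM in iDam, against 4.35 and 5.83 RPKM in BryGFP (-0.77; limma, Benjamini-Hochberg adjusted p = 0.0145). All 3 were lower in iDam with groups apart, and all 3 lost their calls without iDam replicate 2 or BryGFP replicate 2. Rian and Mirg also lost them with libraries shifted to a common median, Rian without iDam replicate 1, and Mirg with a pseudocount of 0.1.

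Of 15 tested miRNA genes of the locus, 10 were lower in iDam, against 19.2% of all genes and 27 of the locus's 36 tested rows. The 5 others, Mir134, Mir432, Mir485, Mir666 and Mir1193, did not pass. Mir1906-1, which lies in Meg3 and gives the first sequence shown above, had 3.30 and 1.77 RPKM in iDam, against 10.1 and 15.9 RPKM in BryGFP (-1.99 ± 0.27, SE; limma, Benjamini-Hochberg adjusted p = 0.00172). Mir453, in Mirg, had 1.61 and 1.73 RPKM in iDam, against 6.58 and 5.41 RPKM in BryGFP (-1.38 ± 0.16, SE; limma, Benjamini-Hochberg adjusted p = 0.00105). Both iDam libraries were well below both BryGFP libraries in these 2 genes. The seed-sharing pair lay alike. Mir3070a had 4.23 and 3.46 RPKM in iDam, against 11.6 and 10.8 RPKM in BryGFP, and Mir3070b had 2.75 and 1.33 RPKM in iDam, against 8.09 and 7.36 RPKM in BryGFP. Mir127, antisense to the retrotransposon-derived gene Rtl1, had 1.36 and 2.93 RPKM in iDam, against 8.35 and 6.16 RPKM in BryGFP. In contrast, Mir1193 had 2.02 and 2.15 RPKM in iDam, against 2.60 and 2.23 RPKM in BryGFP, and Mir485 had 5.72 and 4.19 against 5.12 and 7.07.

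Of 18 tested snoRNA genes of the locus, 14 were lower in iDam. The share was 19.2% over all genes, and 27 of the 36 tested rows of the locus were lower. Most are annotated as copies of SNORD113, a maternally read C/D box family whose near-identical members can share reads, so single copies are uncertain. The copy ENSMUSG00000087885 had 1.59 and 2.00 RPKM in iDam, against 8.23 and 8.69 RPKM in BryGFP (-1.76 ± 0.16, SE; limma, Benjamini-Hochberg adjusted p = 0.000289). The most abundant copy, ENSMUSG00000084549, had 260 and 382 RPKM in iDam, against 435 and 541 RPKM in BryGFP, apart but not passing. AF357425 had 230 and 257 RPKM in iDam, against 394 and 490 RPKM in BryGFP (-0.85; limma, Benjamini-Hochberg adjusted p = 0.0466). The summed RPKM over the 36 tested rows of the locus was 1146 and 1543 in iDam, against 2240 and 2476 in BryGFP.

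**Figure D4:**
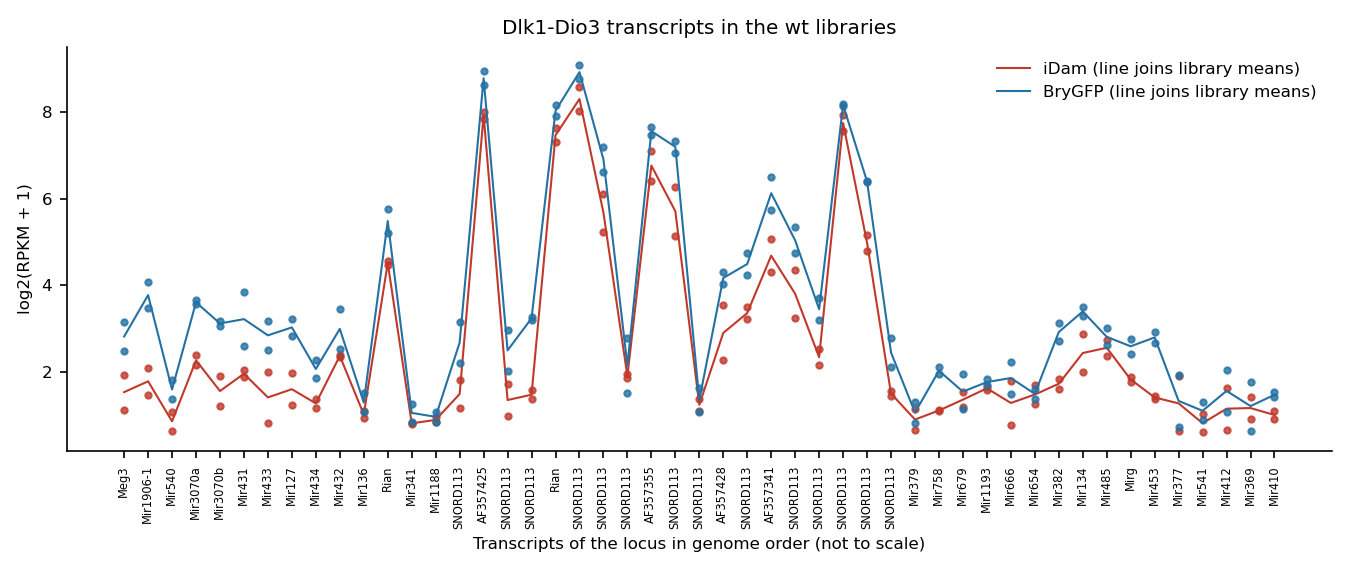
Log2(RPKM + 1) of the 49 Dlk1-Dio3 rows in genome order, with a point per wt library and lines joining the mean of each line. The iDam line runs below the BryGFP line at the 36 tested rows, by 0.14 to 1.99, with Meg3, Rian and their snoRNAs and miRNAs from left to right.

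Chromosome 14 held 73 rows, 67 tested, and 13 were lower in iDam and 0 higher by limma (0 higher also at an unadjusted p under 0.05). That number is close to what the 19.2% over all genes gives, and what follows describes where on the chromosome these genes lay. Apart from Bmp4, these were 12 genes higher in ko, of which 64 were tested. These 12 span a stretch bounded after their values were seen, from SNORA36 to Naa16 (chromosome 14, 64753918 to 79390778, GRCm38). All 22 rows in it were tested, and 21 had both iDam libraries below both BryGFP libraries, against 40% of all genes tested, in a stretch bounded by its called genes. The median ratio of mean RPKM, iDam over BryGFP, was 0.520 inside (quartiles 0.456 and 0.596) and 0.949 over the 42 tested genes outside. By library, the median ratio to the BryGFP mean inside was 0.498 in iDam replicate 1 and 0.535 in iDam replicate 2, and outside it was 0.896 and 1.04. The ratio between the ko lines inside the stretch, iDamko over Ainv18ko, was 1.03.

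Pbk, a mitotic kinase gene, had 6.89 and 6.78 RPKM in iDam, against 16.5 and 14 RPKM in BryGFP (-1.05 ± 0.21, SE; limma, Benjamini-Hochberg adjusted p = 0.00698). Naa16, an auxiliary subunit gene of an N-terminal acetyltransferase, had 1.63 and 1.56 RPKM in iDam, against 3.74 and 4.22 RPKM in BryGFP (-0.94; limma, Benjamini-Hochberg adjusted p = 0.00629). The Wnt receptor gene Fzd3 had 0.785 and 0.681 RPKM in iDam, against 2.17 and 2.31 RPKM in BryGFP (-0.90; limma, Benjamini-Hochberg adjusted p = 0.0075). These 3 had tight duplicates and groups apart, and Pbk lost its call with libraries shifted to a common median. Ccdc25 had 5.86 and 7.06 RPKM in iDam, against 12.3 and 13.6 RPKM in BryGFP, and SNORA5 had 36.7 and 50.1 RPKM in iDam, against 116 and 77.8 RPKM in BryGFP. The number called in the stretch was 4 or 5 without 1 wt library (5 without iDam replicate 1), 2 with libraries shifted to a common median and 16 with only the 4 wt libraries fitted. Outside the stretch 0 of 42 genes higher in ko passed by limma, and 4 were lower at an unadjusted p under 0.05. Since the stretch was bounded by the called genes, this split is a description.

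**Figure D5:**
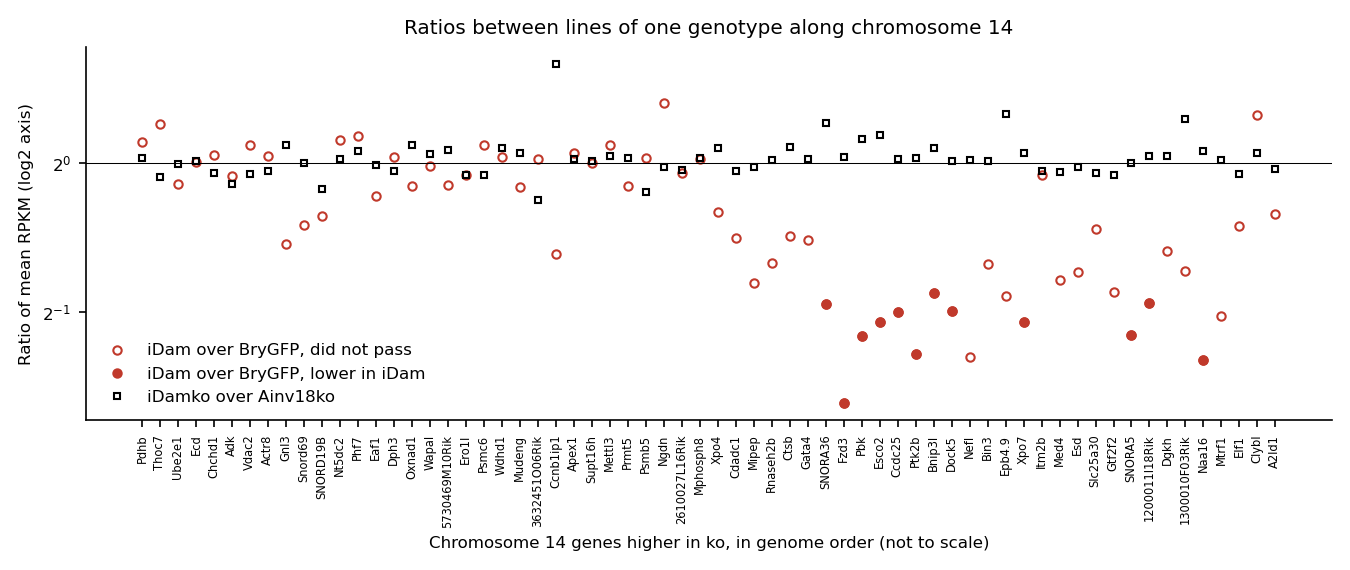
Ratio of mean RPKM on a log axis for the 64 tested chromosome 14 genes that were higher in ko, in genome order. Circles are iDam over BryGFP, filled where the gene was lower in iDam, and squares are iDamko over Ainv18ko. From SNORA36 to Naa16 the circles have a median of 0.520, and the squares 1.03.

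Outside these groups, the largest differences were spread over the genome, and the roles of the genes varied. Sp6, a zinc finger factor of skin and tooth, had 1.14 and 0.809 RPKM in iDam, against 5.44 and 5.85 RPKM in BryGFP (-1.76; limma, Benjamini-Hochberg adjusted p = 0.000289). Olfml1, a secreted olfactomedin-like protein gene, had 0.749 and 0.674 RPKM in iDam, against 3.68 and 6.42 RPKM in BryGFP (-1.78; limma, Benjamini-Hochberg adjusted p = 0.00142). Both were near 1 RPKM or below in iDam. Among genes higher in iDam, Kctd12b, on chromosome X, had 15.7 and 15.1 RPKM in iDam, against 4.25 and 5.85 RPKM in BryGFP (1.45; limma, Benjamini-Hochberg adjusted p = 0.00174). The actin-binding protein gene Limch1 had 22 and 29.6 RPKM in iDam, against 8.87 and 12.8 RPKM in BryGFP (1.19; limma, Benjamini-Hochberg adjusted p = 0.0207). C77370 had 4.54 and 4.14 RPKM in iDam, against 1.52 and 1.29 RPKM in BryGFP. The ganglioside synthase gene St8sia1 had 3.63 and 3.62 RPKM in iDam, against 1.28 and 1.10 RPKM in BryGFP, and the protocadherin gene Pcdhb22 had 5.00 and 5.03 against 1.84 and 1.99. In all of these the iDam libraries were above both BryGFP libraries, and Limch1 alone of them lost its call without 1 library, which was iDam replicate 2 or either BryGFP library.

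The same fit compared the ko lines. Of 360 genes, 13 passed between iDamko and Ainv18ko (3.61%), 1 higher in iDamko (0.278%) and 12 lower (3.33%), and 11 of the 13 were Dlk1-Dio3 rows, where iDamko was listed at 0 or close to it. The libraries did not overlap in 29 genes with iDamko above Ainv18ko (8.06%) and in 45 with iDamko below (12.5%). The difference between the wt-line and ko-line differences passed in 35 genes (9.72%), 32 of them among the 91, with 53 under a replicate block and 14 to 26 without 1 library. It was 17 without iDam replicate 2, 18 without BryGFP replicate 2 and 14 to 18 without 1 ko library. Over the 91 genes, which were selected for their wt difference, the median absolute log2 difference was 1.10 between the wt lines and 0.15 between the ko lines, with the same sign in 56. Over all 360 genes it was 0.313 between the wt lines and 0.0961 between the ko lines. Between single ko libraries, it was 0.245 within iDamko and 0.294 within Ainv18ko. Across the ko lines it was only 0.136 and 0.138 for libraries of the same number, and 0.290 and 0.299 for the others. The main fit has no term for the number, so this spread enters its common error. A replicate block called 13 genes between the ko lines. Acta2 was lower in both pairs, with 22.6 and 18.0 RPKM in iDamko, against 72.8 and 48.7 RPKM in Ainv18ko (-1.52; limma, Benjamini-Hochberg adjusted p = 0.019), and the test of the difference between the pairs was not passed (-0.53 ± 0.41, SE; limma, Benjamini-Hochberg adjusted p = 0.576). H19 went the other way in ko, with 7.43 and 4.04 RPKM in iDamko, against 2.25 and 1.34 RPKM in Ainv18ko (1.24; limma, Benjamini-Hochberg adjusted p = 0.0448). Many of the genes were close to 0 in both ko lines, where log2(RPKM + 1) can hardly differ. Nnat had 0.131 and 0.0758 RPKM in iDamko, against 0.0929 and 0.0434 RPKM in Ainv18ko.

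Another 262 genes of the table were below the filter and not tested. The libraries of the wt lines did not overlap in 61 of them with iDam above and 69 with iDam below. In the fit without a filter, 26 of the 262 were higher and 25 lower in iDam by limma.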

How the data were processed

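RNA was sequenced from 8 libraries, 2 per line, and the 4 wt libraries are described here. The header names no unit for the authors' deposited library values, which were read as RPKM because the gene length they imply with the deposited CPM correlated with annotated exon length (Pearson r = 0.911 across 352 genes, which are not independent). The authors' deposited table also holds log2 folds, log2 CPM, p-values and FDRs of the 4 ko libraries against each wt line, with the highest FDR at 0.049 and 0.05. Per the submitters' processing notes, edgeR and mm9 were used. The aligner and the counting step are not given in the sources used here. Columns were mapped to lines by name, and ko columns that occur again with the same values were read once.

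Values were tested with limma 3.58.1 (R 4.3.3) and its trended variance on log2(RPKM + 1), a scale that understates the change of low genes. A mean was fitted for each line, with 1 common error from all 8 libraries. The filter was a mean of at least 1 RPKM over these, and 391 genes would pass it on the 4 wt libraries alone. P-values were two-sided and adjusted over all genes tested by Benjamini-Hochberg. The script was tested on simulated data. Depths were read from whole-read steps of 18 to 33 low values per wt library, 83.3% to 90.0% of them within 0.06 of a read, and cover counting error only. Positions are from GENCODE M21 and, for 10 genes, RefSeq (both GRCm38), since the table has none.

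Members, gene lists, rules and tests were chosen with earlier results of these data known. Named were the 10 largest called differences in each direction with groups apart, up to 6 called and 3 other members of each of 15 lists, and up to 6 called chromosome 14 genes. Chosen after their values were seen were the named genes below the filter, the other Dlk1-Dio3 RNAs and the bounds of the chromosome 14 stretch. Alternatives were another pseudocount, other filters and scalings, a fit on the wt libraries, a replicate block and leaving out each library. Added after seeing the data were centring on the median and the block with crossed numbers.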

Additional observations from a re-analysis of the deposited data

Results flagged for a closer look

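The wt-line difference (iDam minus BryGFP) minus the ko-line difference (iDamko minus Ainv18ko) passed the test in 35 genes (limma, Benjamini-Hochberg adjusted p under the threshold of 0.05). On the log2 scale, among the genes named, it was -4.13 for Nnat, -2.76 for Tubb3, -2.34 for H19, -2.01 for Cdh11 and -1.98 for Mir675. It was -1.79 for Pdgfrb, -1.76 for the SNORD113 copy ENSMUSG00000087885, -1.71 for Sp6, -1.56 for Olfml1 and -1.48 for Mir1906-1. It was -1.37 for Itgb3, -1.21 for Pbk, -1.03 for Gfi1 and -1.01 for Naa16. Nnat, this SNORD113 copy, Sp6, Olfml1, Mir1906-1, Itgb3 and Gfi1 were below 1 RPKM in every ko library. There log2(RPKM + 1) leaves little room for a ko-line difference, so their values largely follow the wt-line difference. Tubb3, Pbk and Naa16 were instead higher in every ko library than in any wt library. Positive values were 0.88 for St8sia1, 1.26 for C77370, 1.41 for Kctd12b, 1.41 for Acvrl1 and 1.53 for Clec14a, and 2.50 for the snoRNA row of Rian. In these positive genes other than Rian the wt lines differed with iDam higher, while in the Rian snoRNA row the ko lines differed by -3.07 and the wt lines by -0.57. St8sia1 was also below 1 RPKM in every ko library. H19 and Mir675 had opposite directions in the pairs of lines. With 2 libraries per group, no single library was tested as standing apart.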

How the results depend on the processing

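Under every alternative the 39 named genes that passed kept their direction. Without 1 library, the wt comparison called 48 to 64 genes, 12 to 17 of them higher and 33 to 50 lower in iDam, against 91, 22 and 69. The count of higher genes was 47 without a filter, 34 with the filter on the wt libraries and 34 with the common median, where 32 were lower. Higher in iDamko were 2 genes with a pseudocount of 0.1, 0 without a filter and 0 to 2 without 1 library, against 1. The difference of differences passed in 14 to 26 genes without 1 library. The medians of lists moved as follows. Without a filter, mesenchyme was at -0.20, endothelial at 0.98, imprinted at -0.57, Dlk1-Dio3 at -0.85 and chromosome 14 genes higher in ko at -0.16, while the filter on the wt libraries gave -0.94 for mesenchyme and -0.93 for Dlk1-Dio3. With the common median, endothelial was at 1.69, imprinted at -0.54, Dlk1-Dio3 at -0.82, chromosome 14 at 0.059 and all genes at 0.22. With quantiles endothelial was at 1.73, Dlk1-Dio3 at -0.98, chromosome 14 at -0.040 and all genes at 0.15. With a pseudocount of 0.1, Dlk1-Dio3 was at -1.28 and chromosome 14 at -0.37. Centring on the median gave -0.16 for chromosome 14 and 0 for all genes, and the difference of the authors' deposited log2 folds gave -1.06 for imprinted, -1.30 for Dlk1-Dio3, -0.44 for chromosome 14 and -0.20 for all genes. Without 1 library, imprinted ranged from -0.93 to -0.64, Dlk1-Dio3 from -1.06 to -0.93 and chromosome 14 from -0.30 to -0.14. The cause of these shifts was not tested. Deviations of same-numbered libraries correlated at -0.20 between iDam and BryGFP, 0.409 between iDam and iDamko, 0.516 between iDam and Ainv18ko, 0.695 between iDamko and Ainv18ko, -0.031 between BryGFP and iDamko, and 0.0078 between BryGFP and Ainv18ko. Since these were not all above 0.1, the numbers were not taken to pair samples. A replicate block called 110 genes between the wt lines and 53 for the difference of differences, and crossing the BryGFP numbers called 107. With 2 libraries per line and low RPKM, small differences were not detectable.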
